A study of Mus musculus with 8 samples.

Results

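This section describes 32 genes of the NF-kB pathway and its inflammatory output in a mouse hepatoma line, in libraries labelled as wild type or as knockout of the histone methyltransferase G9a. They were chosen by name, with earlier results of these data known. They comprise 5 subunits of the transcription factor, 6 feedback regulators, 14 cytokines, 2 adhesion molecules and 5 other target genes. All 32 were found among the 47434 genes of the deposited table. Poly-A RNA of Hepa 1-6, a liver cancer cell line of the mouse, was sequenced in 8 libraries, 4 labelled as G9a knockout and 4 as wild type. G9a, the product of Ehmt2, is a repressive enzyme that methylates histone H3. The labels give no treatment, time, clone or culture for either group, so the p-values rest on the spread among libraries, which may be technical, and an effect of the lost gene cannot be told apart from a difference between clones.

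NF-kB factors are dimers of RelA, RelB, c-Rel, p50 and p52, the last pair being made from the precursors that Nfkb1 and Nfkb2 encode. In resting cells inhibitors of the IkB family hold them back. Signals from receptors of tumor necrosis factor, interleukin-1 and microbial products activate the IKK kinases, which mark the inhibitors for destruction, and the freed dimers switch on cytokines, adhesion molecules and their own inhibitors. In liver this pathway links tissue damage to the recruitment of leukocytes and to the survival of hepatocytes.

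Sites for these dimers follow the kappaB consensus, a sequence of 10 bases. Promoter sequences from RefSeq (GRCm38.p6) were matched by symbol for 24 of the 32 genes, and the 250 bases before each RefSeq start were searched on both strands. The consensus was present in 10 of these 24 genes (41.7%), against 2222 of 26994 genes in the RefSeq promoter table (8.23%). It was present in 4 of 7 matched genes that were higher in the knockout and in 4 of 7 that were lower. It was also present in 2 of 5 that were not called (Nfkb2 and Il6) and in 0 of 5 that were not tested. A match is a description of the letters and not of a bound site. The genes were chosen as factors, regulators and targets of NF-kB, so their share of matches is no independent evidence about the pathway. The core of the interferon-stimulated response element (ISRE) was present in 1 of the 24 genes (4.17%; 3.45% of all genes), and the AP-1 site TGANTCA in 7 (29.2%; 7.82%). The upstream sequences of 3 genes that were higher in the knockout (Csf1, Nfkbia, Nfkbie) and 2 that were lower (Rel, Lif) are shown because they hold a match. They run 5′ to 3′ on the strand of the gene, with the matches in capitals and without bases inside the annotated gene.
Csf1, chr3:107760470-107760719, minus strand: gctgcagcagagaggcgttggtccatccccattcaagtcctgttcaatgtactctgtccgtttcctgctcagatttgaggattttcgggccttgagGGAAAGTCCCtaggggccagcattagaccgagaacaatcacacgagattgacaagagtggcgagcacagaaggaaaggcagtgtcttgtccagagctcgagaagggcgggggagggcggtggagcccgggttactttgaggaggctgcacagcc
Nfkbia, chr12:55492648-55492897, minus strand: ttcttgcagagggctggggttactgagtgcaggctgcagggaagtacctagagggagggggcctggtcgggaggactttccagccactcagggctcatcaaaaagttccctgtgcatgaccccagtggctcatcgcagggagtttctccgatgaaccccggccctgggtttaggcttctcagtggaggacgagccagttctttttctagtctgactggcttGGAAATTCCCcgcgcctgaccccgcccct
Nfkbie, chr17:45555450-45555699, plus strand: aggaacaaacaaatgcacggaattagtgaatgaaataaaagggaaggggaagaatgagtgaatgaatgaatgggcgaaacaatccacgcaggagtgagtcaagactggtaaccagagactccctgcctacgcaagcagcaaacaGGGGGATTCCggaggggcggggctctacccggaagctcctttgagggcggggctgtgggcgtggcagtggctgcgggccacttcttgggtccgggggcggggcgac
Rel, chr11:23770971-23771219, minus strand: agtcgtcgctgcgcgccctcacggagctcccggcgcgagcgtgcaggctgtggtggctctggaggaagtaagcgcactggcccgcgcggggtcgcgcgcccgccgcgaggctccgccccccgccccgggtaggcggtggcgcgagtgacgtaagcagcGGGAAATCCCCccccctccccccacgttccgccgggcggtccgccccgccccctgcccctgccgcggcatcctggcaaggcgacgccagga
Lif, chr11:4257318-4257556, plus strand: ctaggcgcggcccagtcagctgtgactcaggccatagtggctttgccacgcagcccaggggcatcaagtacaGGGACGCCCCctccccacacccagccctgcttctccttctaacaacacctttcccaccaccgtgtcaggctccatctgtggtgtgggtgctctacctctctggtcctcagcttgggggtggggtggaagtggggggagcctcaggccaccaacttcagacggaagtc
The matches began 154 bases before the start of Csf1, 29 before Nfkbia, 106 before Nfkbie and 178 before Lif. Rel had a pair of overlapping matches at 92 and 91 bases.

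Library totals lay between 58256100 and 75025236 counts. Ehmt2 was lower in each knockout library (116.7 to 119.8 against 297.6 to 345.4 CPM, counts scaled to the TMM-normalized library total; log2 fold change -1.41 ± 0.05, SE, n = 4 per group, edgeR adjusted p = 3.82e-10). Its RNA was thus reduced and not absent, and G9a protein was not measured here. Of 12 hepatocyte markers, 8 were listed at 0 in all libraries, albumin (Alb) among them, and the sum of the list was 119 to 145 CPM in the knockout against 6.15 to 7.68 CPM in the wild type, mostly through the fetal liver gene Afp (133 ± 11.9 against 5.77 ± 0.57 CPM, SD, n = 4). Macrophage markers summed to 8.27 to 10.1 CPM in the knockout and 6.72 to 10.9 CPM in the wild type, with 4 of 10 at 0 (Adgre1, Itgam, C1qa and C1qb). Endothelial markers summed to 5.38 to 7.44 against 3.45 to 4.98 CPM, with 2 of 9 at 0 (Erg and Emcn). T and B cell markers summed to less than 1 CPM in every library, with Cd3e, Cd3d, Cd3g, Cd4 and Ms4a1 at 0. Fibroblast and stellate cell markers summed to 432 to 464 against 109 to 120 CPM, mostly through Col3a1, with Lum at 0. The hepatocyte, fibroblast and endothelial sums did not overlap between the groups, and their part in the results was not tested. In bulk RNA, more cells of a type and more RNA per cell cannot be told apart. A listed 0 can be a failed estimate in such a table: Itgb1, an integrin chain that adherent cells generally express, was listed at 0 in all 8 libraries.

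The comparison asked how the expression of this pathway differed between the libraries labelled knockout and wild type. Of the 32 genes, 27 had enough counts to be tested. Of these, 12 rose (44.4%) and 7 fell (25.9%), while 8 missed the threshold (edgeR quasi-likelihood test, Benjamini-Hochberg adjusted p under 0.05 over 15840 genes). Over all genes tested 23.6% rose and 23.6% fell (47.2% in either direction), so the share that fell was near the background and the share that rose was above it. The genes were chosen with earlier results of these data known, so these shares are a description and not evidence about the pathway. The median log2 fold change was 0.28 over the 27 genes and 0.00 over all genes tested. Scaling by library sizes only gave 13 rises and 3 falls, and over all genes 4542 rises and 2745 falls. Without knockout replicate 2 only 3 were called lower, and without knockout replicate 3, knockout replicate 4 or wild-type replicate 2 there were 4. Called changes of at least 2-fold numbered 6 higher and 1 lower, where 7.89% and 2.36% of all genes had them. In a test against a change of 1.5-fold, 4 passed as higher (Csf1, Vcam1, Il18 and Tnfaip3) and 2 as lower (Il11 and Lif), where 7.52% and 2.94% of all genes passed. These 6 genes kept their call and direction in all 18 alternative analyses.

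**Figure D1:**
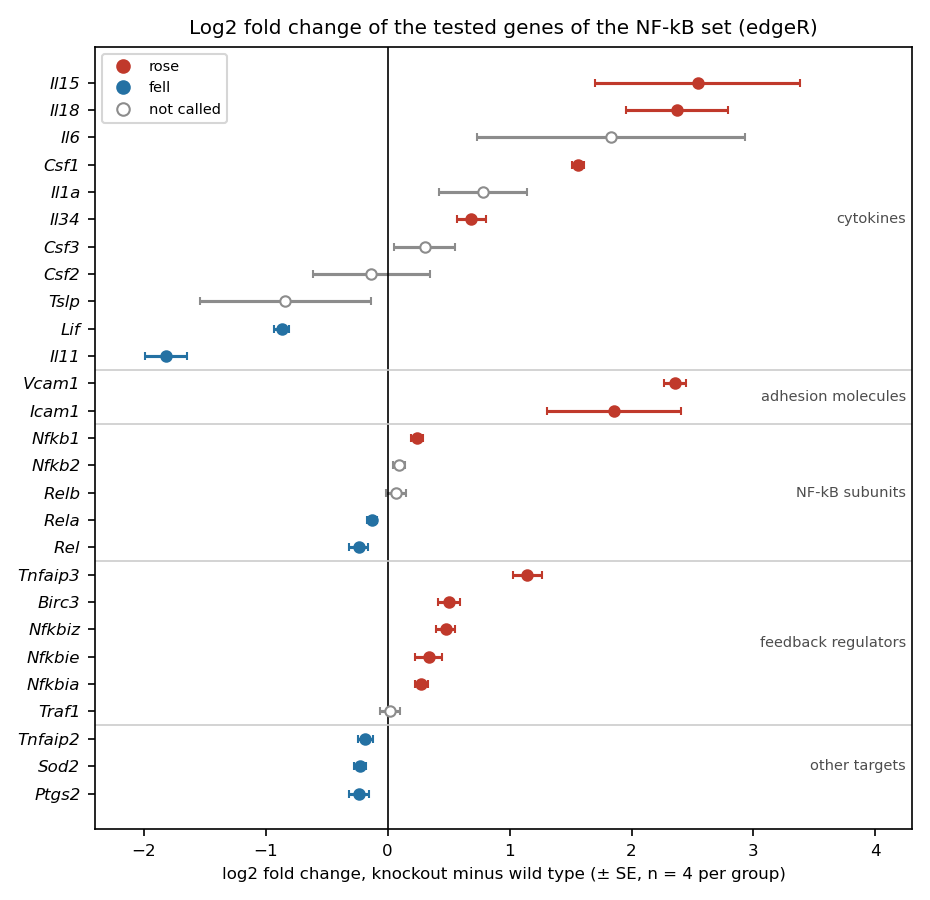
Log2 fold change of the 27 tested genes, knockout minus wild type, on the horizontal axis with SE bars (n = 4 libraries per group), grouped by role. Filled red points rose, filled blue points fell and open points were not called. Il18 (2.37), Vcam1 (2.36) and Csf1 (1.56) stood far to the right with short to moderate bars. With longer bars, Il15 (2.54 ± 0.84) lay farthest right, and Icam1 (1.85 ± 0.55) and uncalled Il6 (1.83 ± 1.10) lay right of Csf1. Il11 (-1.82) and Lif (-0.87) stood to the left, and the 5 subunits lay between -0.24 and 0.24.

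The subunit genes moved little. Nfkb1, which encodes the precursor of p50, rose from 97.6, 90.6, 91.5 and 89.9 CPM in wild-type libraries 1 to 4 to 107.8, 117.4, 104.2 and 108.1 CPM in knockout libraries 1 to 4 (log2 fold change 0.24 ± 0.05, adjusted p = 0.0014). The groups did not overlap, yet the fold was only 1.18. Summed over protein coding transcripts alone, its log2 fold change was 0.125 (adjusted p = 0.0391). Rela, the most widely used activating subunit, was at 97.0, 95.5, 95.8 and 92.2 CPM in the wild type and at 89.7, 84.4, 89.1 and 85.5 CPM in the knockout (-0.13 ± 0.04, adjusted p = 0.0318). Rel, which encodes c-Rel, was at 17.2, 21.3, 19.0 and 18.3 CPM against 16.9, 15.1, 16.6 and 15.7 CPM (-0.24 ± 0.08, adjusted p = 0.0241). In both genes every knockout library lay below every wild-type library. Both calls were lost under several alternatives. With library sizes alone the log2 fold changes were -0.047 (adjusted p = 0.423) and -0.159 (0.114). The call of Rela was also lost with all genes with at least 1 read as the filter (0.0574), with a filter of 1 CPM in 4 libraries (0.0762), and without knockout replicate 2, 3 or 4 or wild-type replicate 2 or 3 (adjusted p 0.0542 to 0.0785), and that of Rel without knockout replicate 2 or 4 or wild-type replicate 2 (0.0571 to 0.0955). With the replicate number as a block they stood at adjusted p = 0.0511 and 0.0509.

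Nfkb2 and Relb, the pair of the non-canonical arm, did not pass. Nfkb2 was at 164.9, 160.1, 152.4 and 162.5 CPM in the knockout and at 158.3, 143.7, 139.2 and 157.6 CPM in the wild type (0.10 ± 0.05, adjusted p = 0.156). The groups overlapped, and with library sizes alone the gene was called higher (0.176, adjusted p = 0.0165). Relb was at 23.3, 25.9, 24.1 and 27.8 against 27.4, 24.1, 21.1 and 24.1 CPM (0.07 ± 0.08, adjusted p = 0.554), with the groups mixed. Per length, Nfkb2 was the most abundant of the 5, at a mean of 106 TPM (counts scaled by transcript length and library total) in the knockout and 93.9 TPM in the wild type. Rela (65.4 and 67.9 TPM) and Nfkb1 (60.2 and 46.7 TPM) followed. Relb (22.8 and 20.8 TPM) and Rel (4.38 and 4.92 TPM) were lowest. These TPM levels are not TMM-scaled. Only 2 of 8 annotated transcripts were listed for Nfkb2 and 1 of 7 for Rela, against 10 of 10 for Nfkb1 and for Relb. The order of the genes may depend on which transcripts were listed.

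Feedback regulators rose in 5 of 6 cases and none fell, where 23.6% of all genes tested rose and 23.6% fell. Tnfaip3 encodes A20, the ubiquitin-editing enzyme that shuts off signaling from receptors. It rose from 2.90, 2.78, 2.36 and 2.57 CPM to 5.94, 6.08, 5.55 and 5.93 CPM (1.15 ± 0.12, adjusted p = 4.2e-06). The knockout mean was 2.21 times that of the wild type, and both groups had little spread. Birc3, which encodes the ubiquitin ligase cIAP2 that relays tumor necrosis factor signals and protects from cell death, rose from 7.15, 8.49, 8.18 and 8.33 CPM to 12.0, 10.3, 12.2 and 11.2 CPM (0.50 ± 0.09, adjusted p = 0.000538). The highest wild-type library (8.49 CPM) lay below the lowest knockout library (10.3 CPM).

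The IkB genes changed in the same direction with smaller size. Nfkbia, the inhibitor that is remade first after activation, rose from 49.0, 48.0, 45.5 and 46.2 CPM to 57.5, 55.1, 57.6 and 58.4 CPM (0.28 ± 0.05, adjusted p = 0.00035). Nfkbiz encodes a nuclear member of the family that helps p50 to activate late genes. It rose from 11.8, 13.9, 14.4 and 12.8 CPM to 17.1, 20.2, 18.0 and 18.2 CPM (0.47 ± 0.08, adjusted p = 0.000416). The groups were apart in both genes. Nfkbie, another cytoplasmic inhibitor, went from 8.369, 7.778, 6.203 and 8.095 CPM to 9.76, 9.84, 8.79 and 9.99 CPM (0.34 ± 0.11, adjusted p = 0.019). Its wild-type replicate 3 was the lowest library, and without it the adjusted p was 0.0557 (0.0507 without knockout replicate 4). Traf1, an adaptor of the receptors, was at 23.4, 23.9, 23.1 and 24.0 CPM in the knockout and at 24.4, 22.1, 20.7 and 26.1 CPM in the wild type (0.02 ± 0.08, adjusted p = 0.868).

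**Figure D2:**
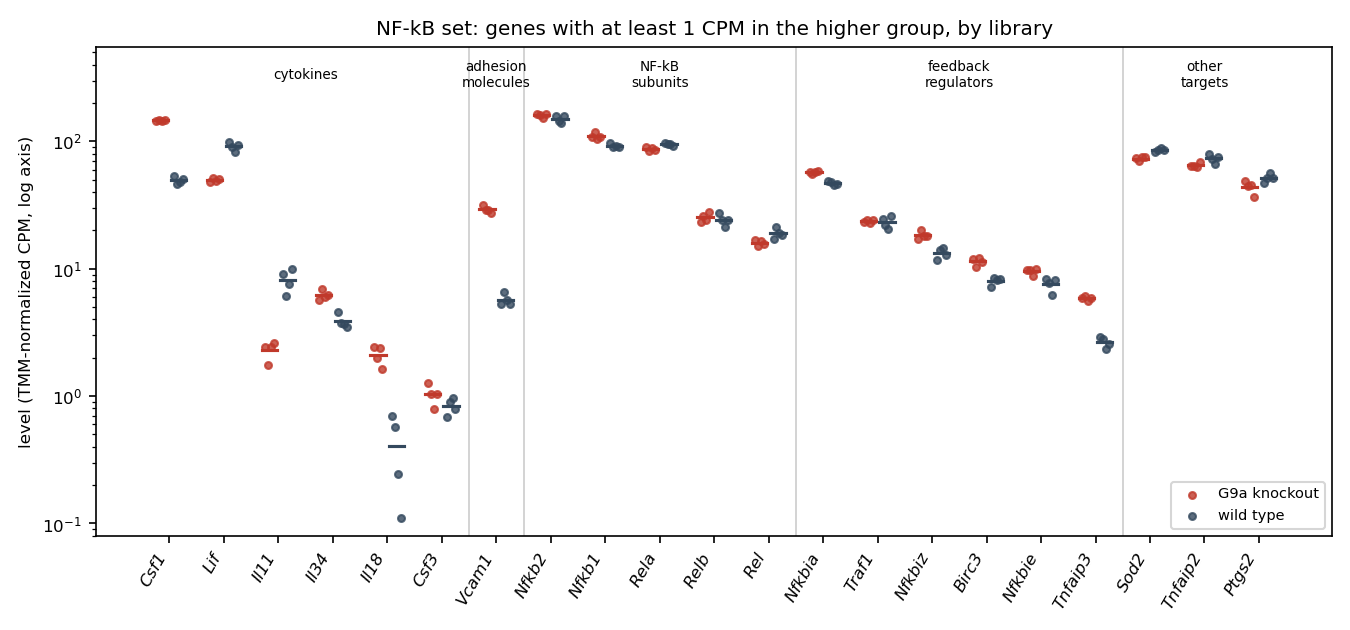
Level of each gene whose higher group reached 1 CPM (log axis, TMM-normalized CPM), with 1 point per library and a line at the mean of each group of 4. Csf1, Vcam1, Il18 and Tnfaip3 show 4 knockout points above all wild-type points at a distance, Lif and Il11 the reverse, and the points of Traf1, Relb and Nfkb2 are mixed.

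Cytokine genes went both ways. Among the 11 with a test there were 4 rises, 2 falls and 5 without a call (36.4% rose and 18.2% fell, beside 23.6% of all genes in each direction). Csf1 (ENSMUSG00000014599, chr3:107741048-107760469 in GRCm38), the growth factor of macrophages, rose from 53.7, 46.3, 48.0 and 50.7 CPM to 145.6, 147.7, 143.8 and 147.9 CPM (1.56 ± 0.05, adjusted p = 1.99e-10). The knockout libraries lay close together, and their mean was 2.95 times that of the wild type. Il34, which encodes the other ligand of the CSF1 receptor, rose from 4.54, 3.72, 3.70 and 3.46 CPM to 5.65, 6.92, 6.00 and 6.21 CPM (0.69 ± 0.12, adjusted p = 0.000482). Both ligand genes were thus separated between the groups. Their receptor gene Csf1r did not pass, at 0.58, 0.94, 0.20 and 1.14 CPM against 1.19, 0.68, 1.13 and 2.51 CPM (-0.94 ± 0.47, adjusted p = 0.125). Il18, an interleukin-1 relative that stimulates interferon-gamma release, rose from 0.70, 0.58, 0.25 and 0.11 CPM to 2.44, 2.01, 2.39 and 1.63 CPM (2.37 ± 0.42, adjusted p = 0.000391). Wild-type libraries differed among themselves by several fold, and all lay below the lowest knockout library.

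The fourth cytokine called higher, Il15, a survival factor of NK cells and memory T cells, was near the limit of detection. It had 16, 16, 24 and 12 counts in the knockout and 0, 3, 8 and 0 in the wild type (2.54 ± 0.84, adjusted p = 0.0236). The call was lost without knockout replicate 3 or wild-type replicate 1, 2 or 4 (adjusted p 0.0561 to 0.0825), and with all genes with at least 1 read as the filter (0.0805). The table listed 1 of its 10 annotated transcripts, so the count covers that transcript.

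Lif and Il11, cytokines of the family that signals through gp130, fell. Lif (ENSMUSG00000034394, chr11:4257557-4272514), which acts on hepatocytes and stem cells, went from 99.1, 89.5, 81.9 and 94.3 CPM to 48.4, 51.7, 48.9 and 50.7 CPM (-0.87 ± 0.06, adjusted p = 9.56e-08). Each knockout library was well below the lowest wild-type library. Il11 (ENSMUSG00000004371, chr7:4772373-4782859), known for its part in fibrosis, went from 9.02, 6.08, 7.55 and 9.92 CPM to 2.42, 1.76, 2.42 and 2.63 CPM (-1.82 ± 0.17, adjusted p = 1.74e-06). The wild-type mean was 3.53 times that of the knockout, and the groups did not overlap. Il6, of the same family, was very low, with 0, 14, 25 and 28 counts in the knockout and 0, 13, 0 and 5 in the wild type (1.83 ± 1.10, adjusted p = 0.196). Its libraries overlapped, and 1 knockout and 2 wild-type libraries were listed at 0.

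The other cytokines were at or under about 1 CPM. Csf3, the growth factor of neutrophils, was at 1.26, 1.04, 0.79 and 1.04 CPM against 0.69, 0.89, 0.97 and 0.79 CPM (0.31 ± 0.25, adjusted p = 0.352). Csf2, Il1a and Tslp did not pass either, with log2 fold changes of -0.13 ± 0.48, 0.78 ± 0.36 and -0.84 ± 0.70. Il1a, an alarmin released by damaged cells, had no overlap between its groups (0.39 to 0.74 against 0.28 to 0.38 CPM; adjusted p = 0.0907). It lies in a stretch of chromosome 2 where neighboring genes were lower in the knockout. Relative to the median of the nearest genes (20 on each side with at least 5 CPM, median log2 fold change -0.59), Il1a was higher by 1.37 (adjusted p = 0.00758). This p-value takes the median as fixed and leaves out its error, and the counts of Il1a were low (19 to 44 per library). Tnf was listed with 8 counts in knockout replicate 1 and 0 elsewhere, Il1b at 0 in all 8 libraries, and Il33 with 0 to 12 counts per library. These 3 did not pass the count filter of the main test.

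Adhesion molecules rose in both cases, where 23.6% of all genes tested rose. Vcam1 (ENSMUSG00000027962, chr3:116109949-116129688), which binds integrins of lymphocytes and monocytes, rose from 5.29, 6.61, 5.64 and 5.29 CPM to 31.8, 28.8, 28.8 and 27.6 CPM (2.36 ± 0.09, adjusted p = 5.06e-10). The groups were far apart, with a ratio of means of 5.12. Icam1, the ligand of leukocyte integrin LFA-1, had 22, 38, 17 and 18 counts in the knockout and 10, 5, 3 and 6 in the wild type (1.85 ± 0.55, adjusted p = 0.0129). At 0.25 to 0.55 CPM against 0.04 to 0.16 CPM it was weakly expressed in all libraries, and without knockout replicate 2, the highest, the adjusted p was 0.0588. Per length, Vcam1 was at 17.4 TPM in the knockout and Icam1 at 0.28 TPM.

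Of the other target genes, 3 were tested and all 3 fell by small amounts, where 23.6% of all genes tested fell. Sod2, the mitochondrial superoxide dismutase, went from 82.3, 85.0, 89.1 and 85.3 CPM to 73.4, 69.5, 74.7 and 74.8 CPM (-0.22 ± 0.05, adjusted p = 0.00146), with no overlap. Only 1 of its 8 annotated transcripts was listed, so its counts cover that transcript. Ptgs2, the inducible cyclooxygenase COX-2, was at 46.7, 51.5, 56.0 and 51.3 CPM in the wild type and at 48.8, 44.3, 45.0 and 36.7 CPM in the knockout (-0.23 ± 0.08, adjusted p = 0.032). Tnfaip2, induced by tumor necrosis factor, was at 79.2, 72.9, 66.8 and 74.7 CPM against 63.5, 63.7, 62.4 and 69.1 CPM (-0.18 ± 0.06, adjusted p = 0.0208). In both genes the groups overlapped in 1 library of each. Ptgs2 was not called with library sizes alone (adjusted p = 0.149), with the neighboring shift taken out (0.117), with all genes with at least 1 read as the filter (0.0806), or without knockout replicate 2, 3 or 4 or wild-type replicate 2, 3 or 4 (0.054 to 0.0969). Tnfaip2 was not called with library sizes alone (-0.103, adjusted p = 0.182), over protein coding transcripts (-0.090, adjusted p = 0.593), or without knockout replicate 1, 2 or 3 or wild-type replicate 4 (0.052 to 0.0696).

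The acute-phase genes Saa3 and Lcn2, strongly induced in inflamed liver, did not pass the count filter of the main test either. Saa3 had 8, 0, 4 and 14 counts in the knockout and 0, 0, 4 and 0 in the wild type. Lcn2 had 68, 0, 10 and 34 counts against 0, 5, 5 and 0. In both, 1 knockout library was listed at 0 while another held the highest count.

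Over the 27 tested genes, the groups did not overlap for 13 genes that were higher in the knockout and 5 that were lower. Over all genes tested these shares were 22.5% and 21.4%. Taking out the shift of the neighboring genes left 13 called higher and 4 lower. It moved Rela to 0.02 (adjusted p = 0.714), ended the calls of Rel (-0.156, adjusted p = 0.134) and Ptgs2, and added Il1a.

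Transcripts of a gene could be compared where at least 2 of them held 5% or more of its counts, which was so for 9 genes with 1000 counts or more. The share of the main transcript was separated between the groups in 1 of the 9, Traf1, against 7.07% of 5177 genes measured in the same way. Birc3 was not among the 9, because no other transcript of it reached 5%. The share of its main transcript, Birc3-201, was also apart, at 83.2 to 92.4% in the knockout against 94.3 to 95.5% in the wild type. Traf1-207, a protein coding transcript of 3436 bases, held 84.4, 86.9, 88.9 and 90.1% of the Traf1 counts in the knockout and 80.5, 69.9, 76.3 and 77.8% in the wild type. Traf1-203, a shorter transcript without an annotated protein, held 13.3, 9.8, 9.5 and 8.9% against 18.4, 25.3, 21.5 and 20.9%. The sum over the gene was level, as given above. For Tnfaip3 the split was unstable: Tnfaip3-205, which retains an intron, held 0, 28.3, 81.0 and 91.4% in the wild type and 1.7 to 10.9% in the knockout. Over protein coding transcripts alone, Tnfaip3 rose by 2.01 on the log2 scale (adjusted p = 0.0166), against 1.15 over all its transcripts. The 2 transcripts listed for Nfkb2 shared its counts in varying proportions, with overlap between the groups. These shares were seen before they were described and carry no test.

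**Figure D3:**
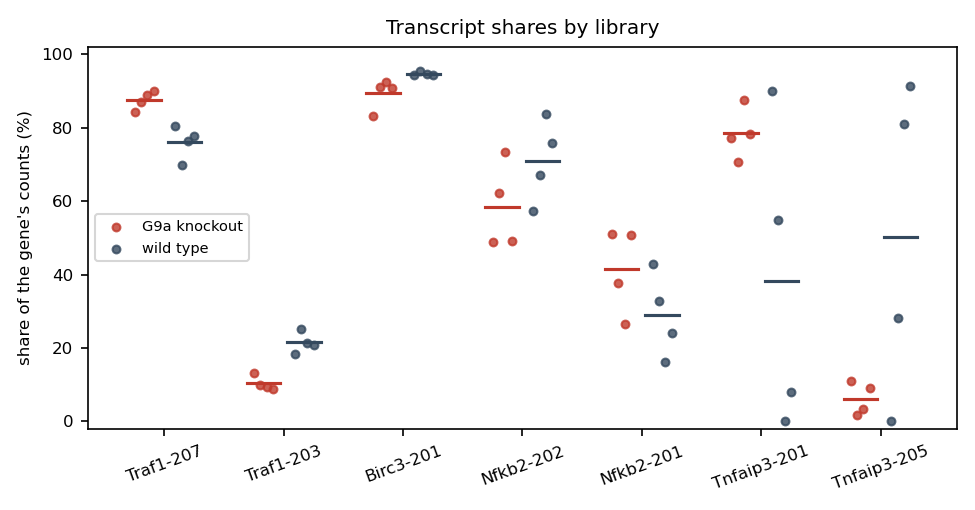
Share of the gene's counts (percent) held by 7 transcripts, 1 point per library and a line at the mean of 4. The Traf1 and Birc3 transcripts are apart between the groups (Traf1-207 at 87.6% ± 2.5 against 76.1% ± 4.5, SD, n = 4), the Nfkb2 transcripts overlap, and the wild-type points of the Tnfaip3 transcripts span most of the axis.

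Genes upstream of NF-kB were counted from a list of 46 receptors, ligands, adaptors and kinases. Of 40 tested, 17 rose (42.5%) and 4 fell (10%), with a median log2 fold change of 0.13. Over all genes tested 23.6% rose and 23.6% fell. Ikbkb, the kinase that marks IkB in the canonical arm, rose from 46.3 ± 1.28 to 72.3 ± 3.87 CPM (SD, n = 4; log2 fold change 0.64 ± 0.05). It lies in a raised stretch of chromosome 8, and relative to its neighbors it was higher by 0.31. The receptor genes Tlr2 (1.37 ± 0.12), Cd40 (1.15 ± 0.11), Il1r1 (0.66 ± 0.07) and Tnfrsf1b (0.59 ± 0.05) rose. Tnfrsf1a, the main receptor of tumor necrosis factor, and the adaptor Myd88 were chosen after their values were seen. They were at 102.7 ± 3.04 against 102.9 ± 0.88 CPM (adjusted p = 0.979) and at 56.9 ± 3.23 against 57.9 ± 1.96 CPM (adjusted p = 0.755). Traf6, the ubiquitin ligase of interleukin-1 signaling, was lower (-0.74 ± 0.07), and by -0.17 relative to its neighbors on chromosome 2 (adjusted p = 0.0533). The number of lower genes was 2 without wild-type replicate 3.

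**Figure D4:**
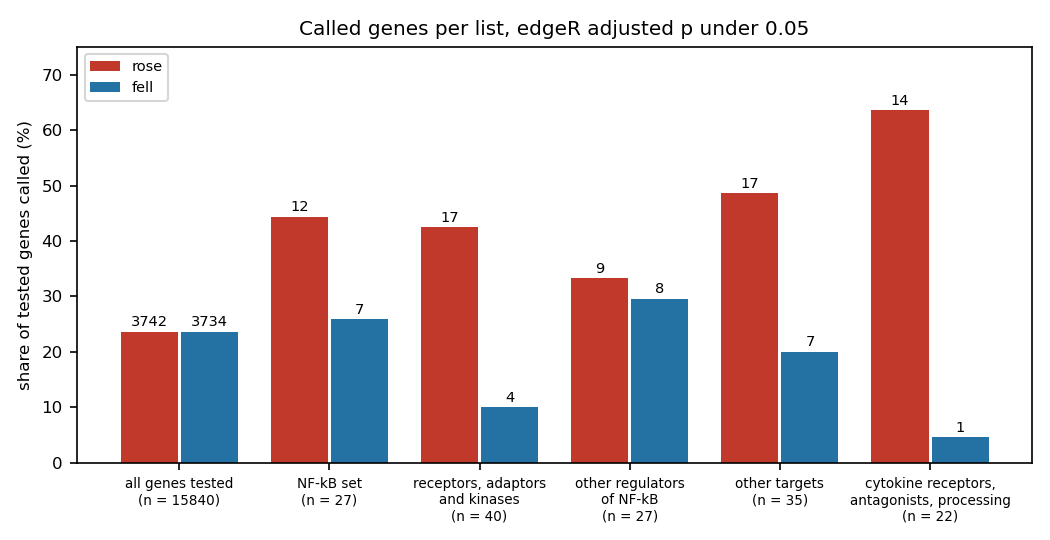
Share of tested genes (percent) that rose or fell in the knockout, for all genes, the NF-kB set and 4 lists of related genes, with the number of genes above each bar. The set of cytokine receptors, antagonists and processing proteins had the highest share of rises (63.6%) and the lowest share of falls (4.55%), beside 23.6% of all genes in each direction. The NF-kB set and the lists were chosen with earlier results of these data known.

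Among 27 tested inhibitors and modulators of NF-kB, 9 rose (33.3%) and 8 fell (29.6%), beside 23.6% of all genes in each direction. The median was near 0. Pdlim2, which directs nuclear RelA to degradation, rose by 0.74 ± 0.07. Bcl3, a nuclear relative of IkB that works with p50 and p52, rose by 0.67 ± 0.07, and Tnip1, a partner of A20, by 0.49 ± 0.07. Nkrf, a repressor of NF-kB targets, was lower (-0.50 ± 0.07). Rbck1, part of the linear ubiquitin ligase, and Itch, a ligase that works with A20, were lower by log2 fold changes of -0.65 ± 0.05 and -0.63 ± 0.06. Both lie on chromosome 2, and relative to their neighbors they were at -0.10 and -0.12 (adjusted p = 0.121 and 0.104).

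In a list of 50 other genes known to respond to NF-kB or inflammatory cytokines, 35 were tested. Of these, 17 rose (48.6%) and 7 fell (20%), beside 23.6% of all genes in each direction. The median was 0.32. Selp, the adhesion molecule P-selectin, rose from 2.13 ± 0.51 to 10.3 ± 0.73 CPM (2.28 ± 0.16). The glucose transporter family gene Slc2a6 rose by 1.98 ± 0.21, and Plau, the urokinase gene, by 0.46 ± 0.05. The survival gene Bcl2l1 (-0.57 ± 0.06) and the calcineurin regulator Rcan1 (-1.21 ± 0.09) were lower. They lie in lowered stretches of chromosomes 2 and 16, and relative to their neighbors they were at -0.01 (adjusted p = 0.943) and -0.21 (adjusted p = 0.0682).

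Receptors, antagonists and processing proteins of these cytokines rose in 14 of 22 tested cases (63.6%) and fell in 1 (4.55%), with a median of 0.58. Over all genes tested 23.6% rose and 23.6% fell. Il1rn, the natural antagonist of the interleukin-1 receptor, rose from 1.52, 0.95, 1.46 and 1.73 CPM to 15.4, 14.9, 14.7 and 17.2 CPM (3.46 ± 0.15, adjusted p = 1.65e-09). Il15ra, which presents IL-15 on the cell surface, rose from 1.02 ± 0.29 to 5.86 ± 0.63 CPM (SD, n = 4; 2.51 ± 0.20). Lifr, the receptor chain for LIF, rose from 15.8 ± 1.69 to 34.7 ± 1.40 CPM (1.13 ± 0.08), while its ligand gene Lif fell. The gp130 gene Il6st (0.40 ± 0.05), the oncostatin M receptor gene Osmr (1.91 ± 0.17) and Il11ra1 (0.52 ± 0.13), named after their values were seen, also rose. Crlf2, the receptor chain for the cytokine TSLP, was the 1 gene of this list that fell, from 9.17, 7.23, 4.96 and 6.40 CPM to 0.90, 0.46, 0.54 and 0.64 CPM (-3.43 ± 0.24, adjusted p = 9.54e-08). Ptgs1, the constitutive cyclooxygenase COX-1, rose by 0.63 ± 0.04. Relative to their neighbors these genes kept their direction, with Lifr at 0.95, Crlf2 at -3.68 and Ptgs1 at 0.92.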

How the data were processed

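Poly-A RNA of 8 Hepa 1-6 libraries was measured, 4 per genotype. FastQC, Trimmomatic, HISAT2 and the build GRCm38.p6 stand in the submitters' processing notes. For the counting tool, strand setting and annotation, nothing is given in the sources used here. Judging by their values, the numbers the authors deposited are estimated counts for each transcript, whole and without normalization. Of 115220 transcripts, 114332 (99.23%) matched GENCODE mouse release 21. The 888 unmatched ones, with 0.148 to 0.170% of the counts, were not used. The table listed 117 of 156 annotated transcripts of the 32 genes. Counts were summed per gene and compared with edgeR 4.0.16 in R 4.3.3 (quasi-likelihood F test, two-sided, TMM, filterByExpr, Benjamini-Hochberg adjustment). The SE was taken from the log2 fold change and its F statistic. TPM was computed from counts and GENCODE transcript lengths. No library repeated another within sampling noise (smallest chi-square per df 10.94). Alternatives were DESeq2 1.42.0, limma-voom (limma 3.58.1), other scalings and filters, a 1.5-fold test, the replicate number as a block, omission of each library, the shift of neighboring genes entered as an offset, and protein coding transcripts alone. The offset was held fixed, so p-values relative to the neighbors leave out the error of their median. The code was tested on simulated data.

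The 32 genes and the lists were chosen with earlier results of these data known. Values per library were given for the subunits and for called genes reaching 1 CPM in either group, and up to 6 genes with the lowest p were named from each of the 4 related lists. A gene that this rule names is not reported here. Other genes named with values were chosen after these were seen. Where genes overlap, their reads may be shared out wrongly.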

Additional observations from a re-analysis of the deposited data

Results flagged for a closer look

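Among 54 groups of 4 libraries, 1 held a library far from the others, where chance gives about 1 in 20. Icam1 was at 0.549 CPM in knockout replicate 2, against 0.252 to 0.286 CPM in the other knockout libraries. The gap was 0.886 of the range of the group.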

How the results depend on the processing

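Counts per list stayed within 1.5 times of those given, apart from the following. In the test against 1.5-fold, 1191 genes were higher and 465 lower over all genes, 4 and 2 of the NF-kB set, 3 and 1 of the upstream list, 1 and 0 of the inhibitors and modulators, 7 and 1 of the other responsive genes, and 6 of the receptor list were higher. The 0 from edgeR's 1.5-fold test stands beside 2 lower at an unadjusted p under 0.05, and beside 8 with edgeR's test against no change and 8 with DESeq2. With library sizes alone, 3 of the set and 2 of the upstream list were lower. With the shift of neighboring genes taken out, 4 of the set, 2 of the upstream list, 5 of the inhibitors and 4 of the other responsive genes were lower. The cause was not tested. Rela turned to 0.023 under that alternative. Leaving out each library in turn gave 3462 to 3866 higher and 3325 to 3793 lower over all genes. For the set it gave 11 to 12 higher and 3 to 7 lower, for the upstream list 12 to 15 and 2 to 5. It gave 9 and 6 to 8 for the inhibitors, 16 to 18 and 6 to 7 for the other responsive genes, and 13 to 14 and 1 for the receptors. Uncalled Csf2 ranged from -0.357 to 0.121 over these omissions and changed sign without knockout replicate 4 (0.056), wild-type replicate 3 (0.121) or wild-type replicate 4 (0.008), and uncalled Traf1 (-0.037 to 0.081) without wild-type replicate 2 (-0.002) or 3 (-0.037). Deviations of same-numbered libraries from their group means had correlations of -0.019 to 0.069. The value of replicate 3 (0.069) was the highest of any combination of knockout and wild-type libraries. This check cannot exclude a pairing or a shared batch, on which the labels give nothing. With the replicate block 12 of the set were higher and 5 lower, and 3643 and 3612 of all genes. DESeq2 and limma-voom kept the calls of all 27 genes. Low counts limit Il15, Icam1, Il6, Il1a, Csf2 and Tslp.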

Other observations

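Several genes of the inflammasome, which processes IL-18 and interleukin-1 beta, rose in the knockout. Apart from Casp4, the genes here were chosen after their values were seen. Casp4, an inflammatory caspase that senses bacterial lipopolysaccharide, rose from 1.29, 1.36, 1.38 and 0.83 CPM to 5.42, 7.15, 6.34 and 7.01 CPM (log2 fold change 2.41 ± 0.18, edgeR adjusted p = 1.61e-07). The inflammasome sensor gene Nlrp3 rose from 1.57 ± 0.47 to 4.94 ± 0.26 CPM (SD, n = 4; adjusted p = 1.03e-05), and Gsdmd, which encodes the pore protein of pyroptosis, from 35.7 ± 2.14 to 57.0 ± 2.05 CPM (adjusted p = 5.61e-07). Pycard, the adaptor between sensor and caspase, rose with overlap between the groups (1.38 ± 0.59 against 0.71 ± 0.19 CPM, adjusted p = 0.0344). Casp1, the caspase that cleaves both cytokines, was listed at 0 in 7 of 8 libraries, and a listed 0 can be a failed estimate.

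The death ligand gene Tnfsf10 (TRAIL) had 80 to 107 counts per knockout library and was listed at 0 in 3 wild-type libraries (7 counts in the other; adjusted p = 2.93e-05). Nos2, the inducible nitric oxide synthase, had 0.38 to 0.67 CPM and was listed at 0 in 3 wild-type libraries (0.07 CPM in the other; adjusted p = 0.000288).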
